A study of Arabidopsis thaliana with 10 samples.

Results

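LINE elements are retrotransposons without long terminal repeats. A full copy is transcribed from an internal promoter, its RNA encodes an RNA-binding protein and a protein with endonuclease and reverse transcriptase activity, and the reverse transcriptase copies the RNA into a nick in the chromosome starting from the 3′ end. Insertions therefore tend to be cut short at the 5′ end, to carry a run of A at the 3′ end and to be bordered by a short direct repeat of the target site. In plants, LINE copies are held silent by DNA methylation, by methylation of histone H3 and by short interfering RNAs. In pollen the vegetative cell, which grows the tube, has decondensed heterochromatin and transcribes some transposable elements (TEs), while the sperm cells keep a compact chromatin.

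The 1266 elements described here are the Arabidopsis thaliana TEs that the deposited annotation places in the LINE/L1 superfamily and that share no base with an annotated gene. They are 1266 of 1366 LINE/L1 elements, since the other 100 overlap genes, and of 27197 TEs outside genes. No measured value entered the choice. RNA from pollen was sequenced in 5 groups of 2 libraries each, all in the Col-0 ecotype. In the RTL1 experiment (6 libraries), total pollen came from untransformed plants (WT Col-0), from plants with pLAT52::RTL1-Myc (pLAT52::RTL1) and from plants with pMGH3::RTL1-Myc (pMGH3::RTL1). RTL1 is an RNase III that cuts double-stranded RNA before it can be diced into siRNA. Per the paper, the LAT52 promoter acts in the late microspore, before pollen mitosis, and then mainly in the vegetative cell. The MGH3 promoter acts in the male germline, so that the constructs place RTL1 differently in developing pollen. Per the paper, 2 independent transgenic lines of each construct were used for RNA sequencing, and the labels do not say which line gave which library. The 2 libraries of a construct may therefore also differ by line. In the FTL experiment (4 libraries), pollen of plants heterozygous for nrpd1a-3 and for a pLAT52::DsRed transgene linked to the wild-type NRPD1a was sorted into DsRed positive grains (WT FTL) and DsRed negative grains (nrpd1a-3 FTL). NRPD1a is the largest subunit of RNA polymerase IV, which transcribes the precursors of the siRNAs that direct DNA methylation. The mutant grains formed on plants that still had a wild-type copy, and the lack of the DsRed transgene cannot be told apart from the mutation. The comparisons ask whether LINE RNA differed when siRNA precursors were removed by RTL1 or were not made by RNA polymerase IV.

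The libraries held 43490027 to 53471964 reads on genes and TEs. Reads of RTL1 checked the constructs, with counts of 270 and 138 (pLAT52::RTL1), 134 and 156 (pMGH3::RTL1), and 0 in each of the other 6 libraries. NRPD1a held 0 to 12 reads per library, too few to check the mutant. All 10 sperm cell markers and all 10 vegetative cell markers had reads, while 4 of 5 tapetum markers were at 0 in all libraries. The 2 libraries of a group differed by more than counting noise over the LINE elements in each of the 5 groups (chi-square per degree of freedom 2.53 to 22.3), so none was counted as a repeat of another. The titles call the 2 libraries of a group biological replicates, as does the paper, but the labels do not say which plants gave each. The p-values measure only the spread between these libraries.

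The ends of many elements carried the features left by insertion of a LINE copy. A run of at least 6 A within the 20 terminal bases, on either strand, was found in 531 of 1266 elements (41.9%) but in 9.12% of the other TEs outside genes, in 2.69% of LTR/Gypsy, in 3.05% of LTR/Copia and in 11.9% of RC/Helitron elements. A direct repeat of at least 10 bases at the borders was found in 128 elements (10.1%), against 2.26% of the other TEs outside genes. Both features occurred together in 107 elements (8.45%), against 0.351% of the others. The A run was about as frequent in elements with and without RNA, at 42.7% of those with 10 or more reads in a library and 41.1% of those without a read. A direct repeat was present in 13.3% and 8.62% (10 and 78 elements) in the same order, and both features in 10.7% and 6.85% (8 and 62 elements). The borders of AT5TE26970 (ATLINE1A family) and AT3TE70260 (ATLINE2 family), which changed in pLAT52::RTL1 pollen below, and of AT4TE50995 (ATLINE1_1 family, chosen after its values were seen as a long copy) show both features. They are printed 5′ to 3′ on the strand that ends in A, from RefSeq's TAIR10.1, with 30 bases outside each annotated end. Capitals mark the direct repeat.
AT5TE26970 start, chr5:7457331-7457390, plus strand: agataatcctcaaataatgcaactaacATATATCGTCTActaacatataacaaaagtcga
AT5TE26970 end, chr5:7457673-7457742, plus strand: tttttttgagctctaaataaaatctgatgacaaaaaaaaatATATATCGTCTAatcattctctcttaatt
AT3TE70260 start, chr3:17332238-17332297, plus strand: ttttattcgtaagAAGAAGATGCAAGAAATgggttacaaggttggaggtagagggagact
AT3TE70260 end, chr3:17332598-17332667, plus strand: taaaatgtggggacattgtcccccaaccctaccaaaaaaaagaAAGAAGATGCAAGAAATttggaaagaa
AT4TE50995 start, chr4:11114330-11114389, minus strand: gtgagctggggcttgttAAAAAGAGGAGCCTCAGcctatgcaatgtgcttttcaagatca
AT4TE50995 end, chr4:11111664-11111733, minus strand: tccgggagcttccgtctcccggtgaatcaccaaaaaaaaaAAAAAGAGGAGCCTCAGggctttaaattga
The repeats are 12, 17 and 17 bases long. AT5TE26970 and AT3TE70260 are short copies of 352 and 370 bases, whereas AT4TE50995 has 2666 bases and an open frame of 2592 bases.

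The 3′ ends of the element with the most reads, AT3TE43550, and of the element with the longest open frame, AT5TE31020 (3882 bases, chosen after its values were seen), are printed next as the last 80 bases. Capitals mark the terminal A run.
AT3TE43550 end, chr3:10477962-10478041, minus strand: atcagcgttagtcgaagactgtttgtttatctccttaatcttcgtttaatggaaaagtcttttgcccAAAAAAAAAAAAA
AT5TE31020 end, chr5:8577753-8577832, plus strand: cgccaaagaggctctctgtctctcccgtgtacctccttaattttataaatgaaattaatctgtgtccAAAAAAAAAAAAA
At the other extreme, 7 of the elements with 10 or more reads in a library had fewer than 100 bases, which is shorter than a sequencing read of 100 bases, and they held 13057 reads. The following 3 are shown whole, in capitals, with 15 bases on each side, because a read of 100 bases is longer than each of them and extends into the flanking sequence.
AT1TE33205, chr1:10275933-10275991, plus strand: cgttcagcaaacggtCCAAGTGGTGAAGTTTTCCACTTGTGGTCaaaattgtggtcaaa
AT3TE91225, chr3:22390473-22390576, plus strand: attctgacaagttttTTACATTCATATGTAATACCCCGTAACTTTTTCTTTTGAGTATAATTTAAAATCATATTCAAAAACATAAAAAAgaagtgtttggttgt
AT5TE55645, chr5:15383899-15383949, plus strand: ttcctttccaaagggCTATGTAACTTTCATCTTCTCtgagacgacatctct

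Most LINE reads in pollen were counted at few elements. No read was counted for 905 elements in any library, 286 had at most 9 reads in a library, and 75 had 10 or more reads in at least 1 library, of which 19 had 10 or more in all 10 libraries. A count of 0 allows up to 3 reads per library, which covers counting error only. One element, AT3TE43550, held 29083 of the 72229 reads (40.26%). The 5 elements with the most reads held 69.57% and the 20 with the most held 87.86%. Both shares include AT1TE33205 and AT1TE33210, adjoining elements with nearly equal counts that may hold the same reads. The reads on LINE elements made up 152 to 314 ppm of the reads on genes and TEs in the RTL1 experiment and 58.3 to 83.3 ppm in the FTL experiment. Of the reads on all TEs they were 0.201% to 1.33%.

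**Figure D1:**
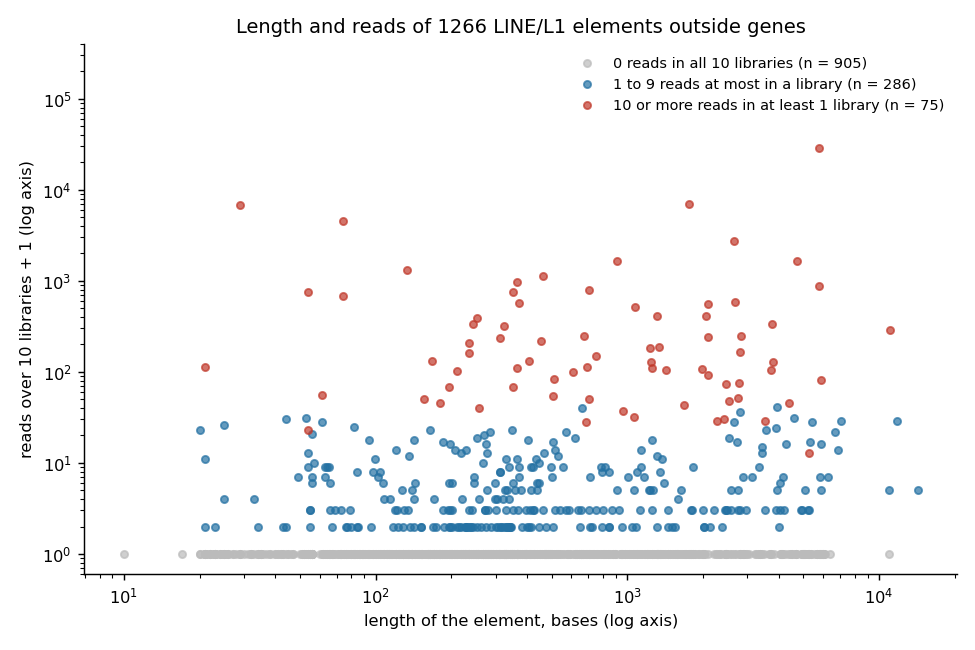
Length of each of the 1266 LINE/L1 elements outside genes (bases, log axis) against its reads summed over 10 libraries plus 1 (log axis). Grey points are the 905 elements with 0 reads, blue points the 286 with at most 9 reads in a library and red points the 75 with 10 or more; elements with many reads occur at all lengths.

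Elements with RNA were longer at the median, but most long copies and most copies with a long open frame had few or no reads. The median length was 297 bases in the elements without a read, 354 bases in those with at most 9 reads and 909 bases in those with 10 or more. Of 87 elements over 4000 bases, 56 had 0 reads in all libraries and 7 had 10 or more in a library. An open frame of 2700 bases or more, long enough for most of the reverse transcriptase protein, was present in 18 elements. Of these, 8 had 0 reads and only AT2TE78210 (TA11 family, open frame 2892 bases) had 10 or more in a library. AT5TE31020, with the longest open frame, had 6 reads over the 10 libraries. The longest copies of the 3 families with the most reads had few reads as well, namely AT3TE52800 (ATLINE1_6, 14251 bases), AT2TE28955 (ATLINE1_5, 6843 bases) and AT2TE27670 (ATLINE1_4, 6712 bases). Within 50 kb, TEs covered a median of 34.5% of bases around elements without a read and 27.4% around those with 10 or more. The median distance to the nearest gene was 1269 bases and 1110 bases in the same order.

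For many of the 75 elements the counts followed those of the flanking sequence. The deposited annotation lists the intergenic interval on each side as a row of its own, which allowed reads to be compared across the border. In 31 of the 75 elements a flanking interval held at least as many reads as the element. In 5 of them (AT1TE33205, AT1TE33210, AT3TE93145, AT5TE55640 and AT5TE55645) the reads were within 10% of those of both flanking intervals. In 15 elements both intervals held at most 10% of the reads of the element. Several of these intervals, such as both of AT5TE51200, have only 2 listed bases, so that low counts there say little about the flanking sequence. A base was shared with a RefSeq pseudogene by 49 of the 75 elements, against 657 of all 1266, and with a RefSeq gene by 10 of the 75, against 82 of all. Of the 75, 54 were at least 500 bases from any annotated gene, against 915 of all 1266. Of the 75, 5 had another TE at 99% identity or more over 90% or more of their length. This count leaves out shorter matches, which a read of 100 bases can also fit, and only TEs were searched. AT5TE38820, for one, matched another TE at 100% identity over 2250 bases, 51.0% of its length. How many elements are limited by sequence similarity is thus not known. How reads that fit several copies were counted is not given in the sources used here, nor whether strand was used, so that reads of an element and of a transcript antisense to it cannot be told apart.

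**Figure D2:**
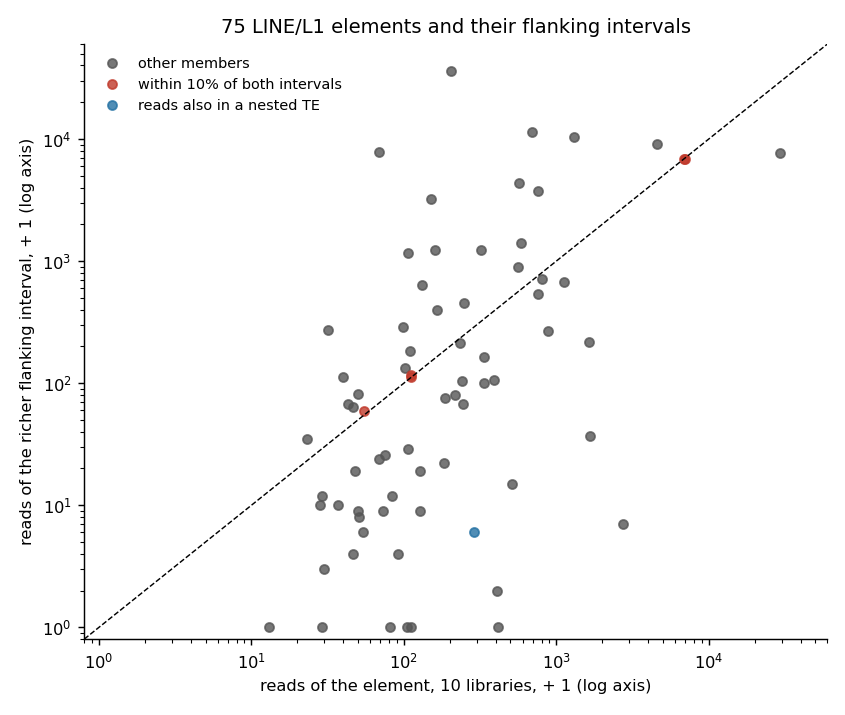
Reads of the 75 elements with 10 or more reads in a library against those of the richer of their 2 flanking intergenic intervals, summed over 10 libraries plus 1 (log axes). The dashed line marks equal reads; red points are the 5 elements within 10% of both intervals and the blue point is AT2TE13950, whose reads were also counted for a nested TE. In 31 of the 75 elements the richer interval held at least as many reads. Among these, AT3TE41210 and AT2TE39820 (84122 and 681515 reads in the richer interval) lie beyond the axis and are not shown.

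The element with the most reads was AT3TE43550, a copy of the ATLINE1_6 family of 5782 bases on chromosome 3 (10477962 to 10483743, TAIR10), 1558 bases from the gene AT3G28155. The WT Col-0 libraries gave 3042 and 3521 reads, those of pLAT52::RTL1 gave 9003 and 4663, and those of pMGH3::RTL1 gave 3666 and 3607. Sorted WT FTL grains gave 951 and 238 reads, and nrpd1a-3 FTL grains 269 and 123. It was thus several times lower in all 4 sorted libraries than in all 6 libraries of total pollen, and its count was high in 1 of the 2 pLAT52::RTL1 libraries. The adjoining interval at the start of the element, of 1559 bases, moved with it, from 721 and 912 reads (WT Col-0) to 2225 and 1318 (pLAT52::RTL1), with 65 to 262 in the sorted libraries. The interval at the 3′ end held at most 12 reads in a library. RefSeq annotates a pseudogene on the strand of the element (AT3G28153) and a non-coding RNA on the opposite strand (AT3G00470) here, and the counts do not separate them. Normalised counts averaged 3369 ± 71.8 (SD, n = 2) for WT Col-0 and 4615 ± 1914 for pLAT52::RTL1, and the difference did not pass the test (log2 fold change 0.46 ± 0.24, SE; DESeq2 adjusted p = 0.225). Normalised counts are reads divided by a size factor per library, by the median of ratios method.

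Counts at AT1TE33205 and AT1TE33210 were nearly equal to each other and to those of the intervals around them. AT1TE33205 is a fragment of 29 bases of ATLINE1_5 and AT1TE33210 the adjoining copy of ATLINE1_4 of 1751 bases (chromosome 1, 10275977 to 10277727), between the genes AT1G29355 and AT1G29370. At AT1TE33205, WT Col-0 libraries had 795 and 937 reads, pLAT52::RTL1 libraries 1059 and 1333, pMGH3::RTL1 libraries 1007 and 843, WT FTL libraries 416 and 194, and nrpd1a-3 FTL libraries 136 and 151. AT1TE33210 had 799 and 944, 1072 and 1333, 1024 and 851, 425 and 213, and 145 and 187 in the same order. The counts of both elements, of the interval of 2 listed bases between them (795 and 937 reads in WT Col-0) and of the interval beyond AT1TE33210 (797 and 939) were nearly the same. They did not grow with length, at 6871, 6869, 6993 and 6885 reads over 10 libraries for 29, 2, 1751 and 164 listed bases. RNA of the 1751 bases themselves is thus not shown, and whether the same reads span all these stretches was not tested. Counts of AT1G29355, 847 and 987 in WT Col-0 and 142 and 151 in nrpd1a-3 FTL, were close to these too.

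Some other elements with high counts had as many or more reads beside them, and some had few. AT3TE91225 (ATLINE1_3A, 74 bases), 686 bases from AT3G60570, which encodes a beta-expansin (EXPB5), had WT Col-0 counts of 451 and 516, pLAT52::RTL1 counts of 974 and 737, pMGH3::RTL1 counts of 556 and 550, WT FTL counts of 442 and 158, and nrpd1a-3 FTL counts of 94 and 79. The intervals on either side held 9063 and 7399 reads over the 10 libraries, against 4557 for the element. AT3TE91170, 7324 bases away, is an identical copy with equal flanks for 249 bases on the left and 659 on the right. AT2TE18800 (ATLINE1_6, 133 bases) held 8 to 307 reads per library beside an interval of 6585 bases with 10465 reads. AT3TE41210 (ATLINE1_6, 364 bases) held 49 to 239 reads per library beside an interval with 84122 reads that adjoins the gene AT3G26860. By contrast, AT4TE26965 (ATLINE1_5, 909 bases), with 1645 reads in all, had 215 and 8 reads in its flanking intervals. AT2TE78210 (TA11, 4723 bases), the copy with a long open frame, had 22 and 36, in intervals of 499 and 2 listed bases. Its WT Col-0 libraries gave 146 and 132 reads and its pLAT52::RTL1 libraries 543 and 130, so that it was high in 1 library. AT5TE51200 (ATLINE1A, 2661 bases) had 6 and 1 reads in its flanking intervals, of only 2 listed bases each, against 2743 reads of its own. AT3TE71860 (ATLINE1A, 463 bases) had 671 and 123 against 1121.

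**Figure D3:**
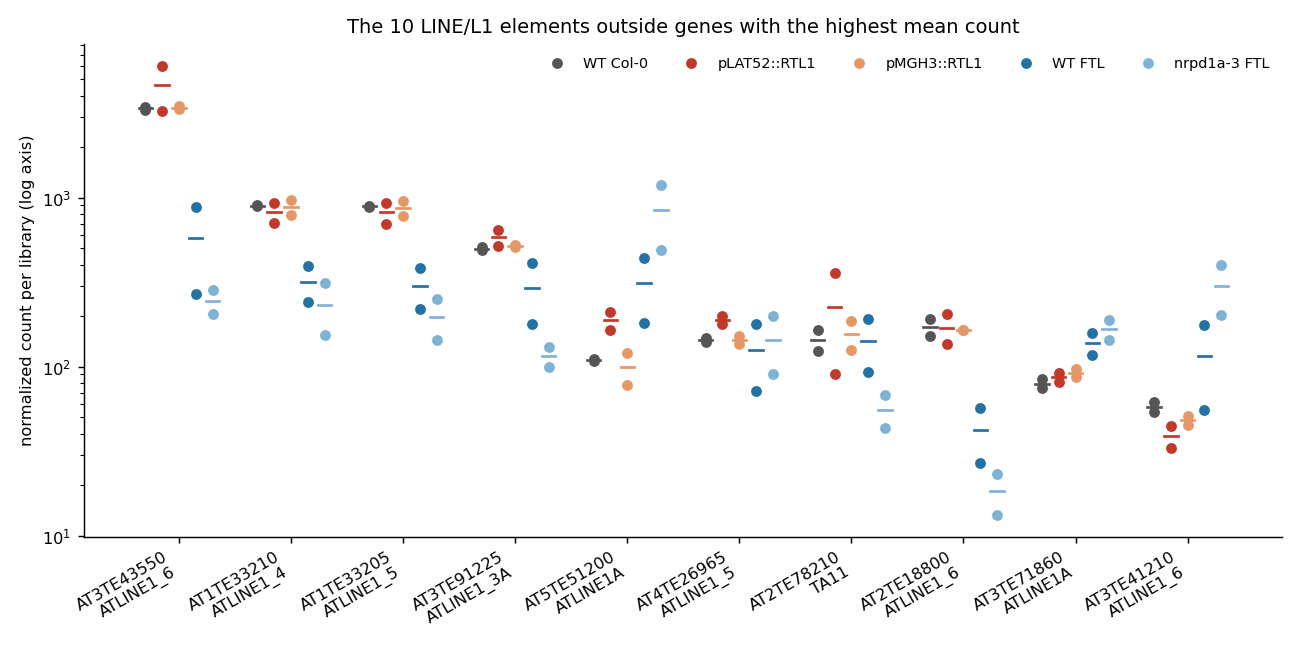
Normalised counts (log axis) of the 10 LINE/L1 elements outside genes with the highest mean count, with the family under each name. Points are the 2 libraries of a group and short lines their mean; AT3TE43550 was lower in all 4 sorted libraries (204.6 to 878.1) than in the 6 libraries of total pollen (3261 to 5969), and AT5TE51200 was highest in nrpd1a-3 FTL.

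LINE families differed in how their reads were spread over the listed elements. Summed reads of the family ATLINE1_6 (125 elements) made up 46.1% of all LINE reads, and AT3TE43550 gave 87.3% of these. ATLINE1_5 (88 elements) and ATLINE1_4 (96 elements) gave 14.4% and 11.0%, mostly from AT1TE33205 (66.0% of the family) and AT1TE33210 (88.0%). These adjoining elements had nearly equal counts, so that both shares may rest on the same reads. ATLINE1A, the largest family with 256 elements, gave 7.93%, and its leading element AT5TE51200 held 47.9% of that. ATLINE1_3A gave 7.75%, TA11 4.93%, ATLINE2 3.47%, ATLINEIII 2.51%, ATLINE1_1 1.24% and ATLINE1_2 0.623% of the reads. The 2 elements of TA12 had 1 read. In these families the reads were thus mostly counted at 1 or a few elements.

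ATLINE1A was the only family whose libraries lay above those of the wild type in both pLAT52::RTL1 and nrpd1a-3 FTL, when scaled within each experiment. Its normalised counts had a mean of 272 ± 2.47 (SD, n = 2) for WT Col-0, 470 ± 1.49 for pLAT52::RTL1 and 298 ± 27.9 for pMGH3::RTL1. For the sorted pollen the means were 649 ± 281 (WT FTL) and 1359 ± 668 (nrpd1a-3 FTL). The log2 ratio of the means was 0.79 for pLAT52::RTL1 against WT Col-0, 0.63 against pMGH3::RTL1 and 0.96 for nrpd1a-3 FTL against WT FTL. In these comparisons the libraries of the first group were all above those of the second when scaled within the experiment, and AT5TE51200, AT5TE26970 and AT3TE71860 carried most of the reads. Sums over elements were not tested, since elements of a family are no replicates.

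Other families differed as well, among them ATLINE1_3A and TA11, which were lower in nrpd1a-3 FTL. ATLINE2 was 290 ± 14.5 in pLAT52::RTL1 against 216 ± 37.7 in WT Col-0 (log2 ratio 0.43). ATLINE1_3A was 167 ± 50.9 in nrpd1a-3 FTL against 369 ± 164 in WT FTL (log2 ratio −1.26), which followed AT3TE91225. TA11 was 251 ± 23.6 in nrpd1a-3 FTL against 371 ± 23.5 in WT FTL (log2 ratio −0.64). In both of these families the nrpd1a-3 FTL libraries were all below those of WT FTL when scaled within the experiment. In ATLINEIII the 5 group means lay between 169 and 192 normalised counts, a narrow range across both experiments. Summed over all LINE elements, pLAT52::RTL1 had a log2 ratio of 0.29 to WT Col-0 with AT3TE43550 and 0.13 without it, and 0.03 without pLAT52::RTL1 replicate 1. The ratio was 0.04 for pMGH3::RTL1 against WT Col-0 and 0.05 for nrpd1a-3 FTL against WT FTL, and the latter was negative, −0.29, when libraries were scaled by their total reads.

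**Figure D4:**
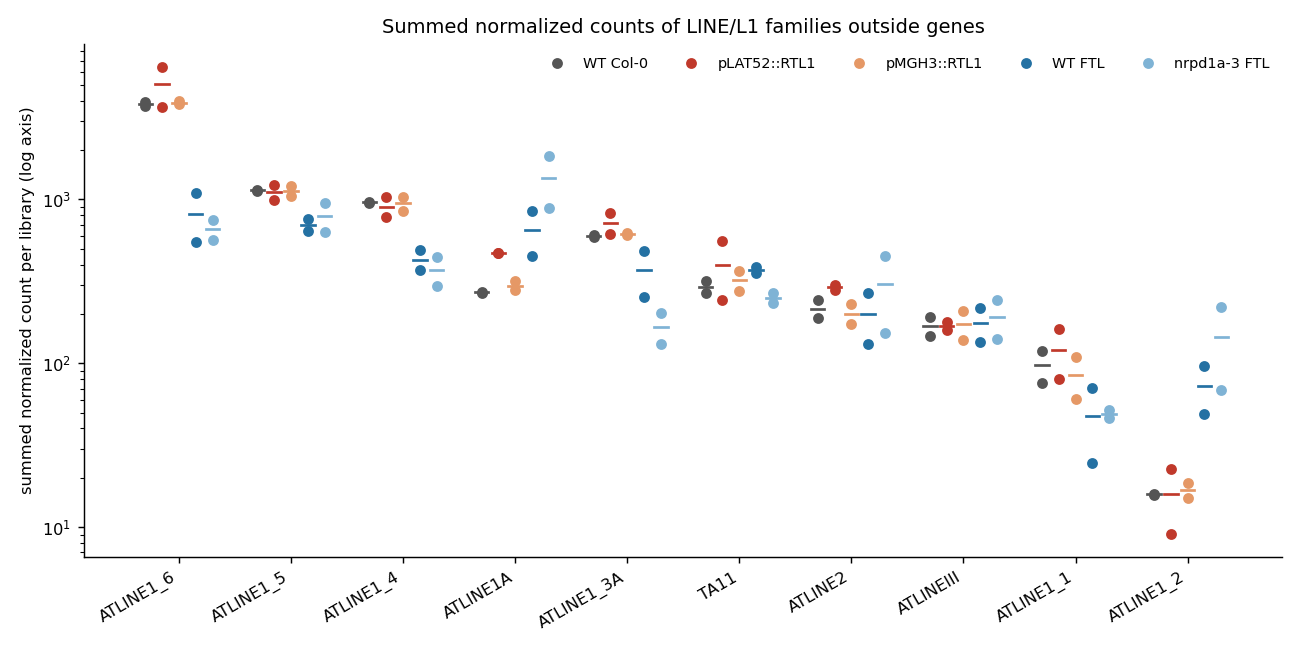
Summed normalised counts per library (log axis) of the 10 LINE families that hold an element with 10 or more reads in a library. Points are the 2 libraries of a group and short lines their mean; the ATLINE1A libraries of pLAT52::RTL1 lie above those of WT Col-0 and pMGH3::RTL1, and ATLINE1_6 is lower in the sorted pollen.

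Expression of RTL1 from the LAT52 promoter was accompanied by higher RNA at 2 LINE elements. AT5TE26970 and AT3TE70260 rose, by log2 fold changes of 2.21 ± 0.47 and 2.01 ± 0.66 (SE), and no element fell. The test, DESeq2's Wald test over all genes and TEs with Benjamini-Hochberg adjustment at 0.05, was made for 40 of the 1266 elements, because 311 had any estimate and most of these fell under the filter on low mean counts. Of all genes and TEs tested, 14.3% were called, 6.53% higher and 7.77% lower, so that the 2 of 40 elements were not a larger share than that of features in general. The 40 elements had 27 positive and 13 negative fold changes with a median of 0.15, against −0.01 for all features tested. At an unadjusted p under 0.05, 6 of the 311 elements with an estimate were higher and 0 lower, against 1495 and 1423 of 27651 features. The quasi-likelihood test of edgeR called 3 of 52 elements higher. Among the other TEs outside genes, LTR/Gypsy elements had 24 called higher and 3 lower of 105 tested, and LTR/Copia elements 2 higher and 0 lower of 60. All TEs outside genes, LINE elements included, had 67 higher and 23 lower of 539 tested. Cell type markers moved in the same libraries, since of 10 vegetative cell markers 1 was called higher and 4 lower, of 10 sperm cell markers 0 higher and 1 lower, and of 7 leaf markers tested 3 higher and 0 lower. Their part in the LINE values was not tested.

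AT5TE26970 is a fragment of 352 bases of ATLINE1A on chromosome 5 (7457361 to 7457712), 676 bases from the gene AT5G22480. The libraries of WT Col-0 gave 26 and 27 reads, those of pLAT52::RTL1 gave 245 and 127, and those of pMGH3::RTL1 gave 25 and 29. Among sorted grains the counts were 36 and 76 (WT FTL) against 82 and 80 (nrpd1a-3 FTL). Both pLAT52::RTL1 libraries were thus above all 4 others of the RTL1 experiment. The adjusted p was 5.6e-05 with DESeq2 and 0.0020 with edgeR. The interval between the element and AT5G22480 had a like order, with counts of 9 and 17 (WT Col-0), 143 and 103 (pLAT52::RTL1) and 17 and 46 (pMGH3::RTL1), while the interval beyond its 3′ end held 1 to 14 reads. AT5G22480 itself had a log2 fold change of 0.30 ± 0.19 (DESeq2 adjusted p = 0.367). Without pLAT52::RTL1 replicate 1 the log2 fold change was 1.69, and the element fell under the filter and had no adjusted p.

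AT3TE70260 is a fragment of 370 bases of ATLINE2 on chromosome 3 (17332268 to 17332637), 348 bases from AT3G47060, which encodes the chloroplast protease FTSH7. WT Col-0 libraries gave 12 and 10 reads, pLAT52::RTL1 libraries 69 and 66, and pMGH3::RTL1 libraries 12 and 20, so that both pLAT52::RTL1 libraries were above the 4 others, with an adjusted p of 0.0196 with DESeq2 and 0.0121 with edgeR. Sorted grains gave 66 and 124 reads (WT FTL) and 83 and 108 (nrpd1a-3 FTL), counts as high as those of pLAT52::RTL1. The interval of 1380 bases at its 5′ side had far more reads and the same order of groups, at 97 and 137 (WT Col-0), 880 and 375 (pLAT52::RTL1), 165 and 178 (pMGH3::RTL1) and 449 to 706 (sorted libraries). FTSH7 counts were 150 and 211 for WT Col-0 libraries and 170 and 234 for pLAT52::RTL1 libraries (log2 fold change −0.42 ± 0.31, DESeq2 adjusted p = 0.454). The call on AT3TE70260 was lost when any 1 of the 4 libraries compared was left out. The DESeq2 adjusted p was 0.122 without WT Col-0 replicate 1, 0.226 without WT Col-0 replicate 2 and 0.118 without pLAT52::RTL1 replicate 2. None was given when replicate 1 of pLAT52::RTL1 was left out (log2 fold change 2.00).

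**Figure D5:**
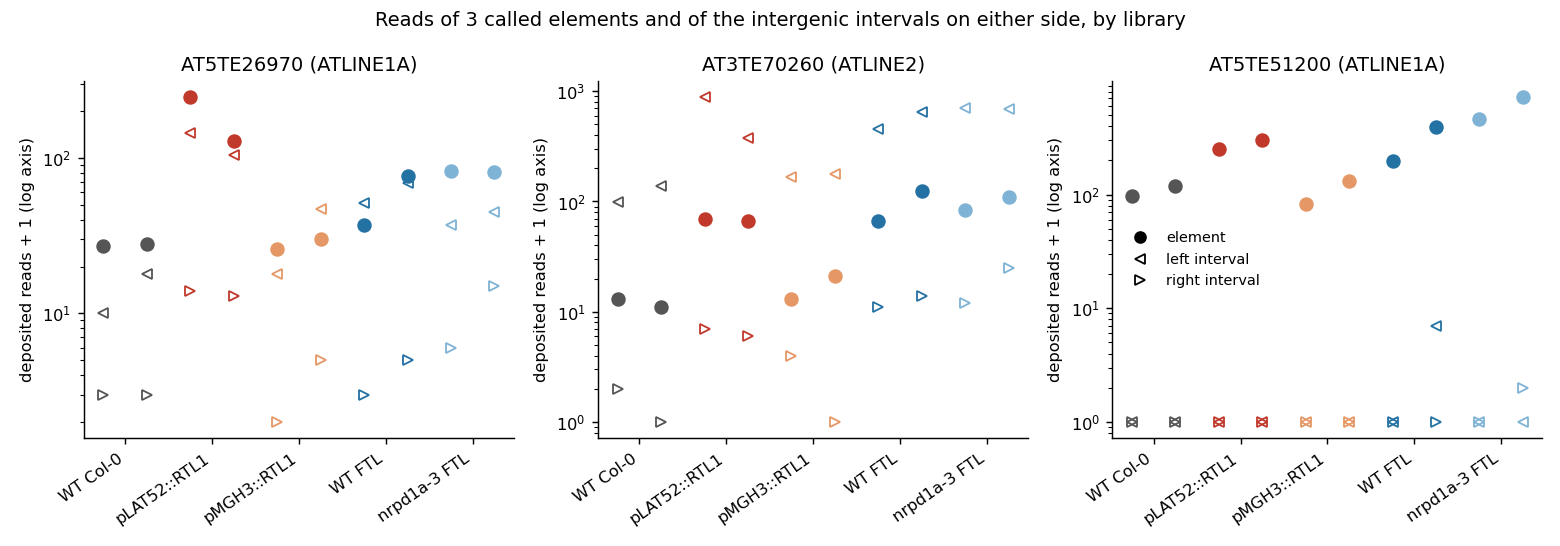
Deposited reads plus 1 per library (log axis) of AT5TE26970, AT3TE70260 and AT5TE51200 (filled points) and of the intergenic intervals to the left and right of each (open triangles), with 2 libraries per group. The left intervals of AT5TE26970 and AT3TE70260 are high in the same libraries as the elements. The intervals of AT5TE51200, of 2 listed bases each, hold 0 to 6 reads.

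Against pMGH3::RTL1, pLAT52::RTL1 had 2 elements higher and 0 lower of 34 tested, where 12.9% of all features were called, 5.53% higher and 7.36% lower. These were AT5TE26970 (log2 fold change 2.30 ± 0.47, DESeq2 adjusted p = 2.3e-05) and AT5TE51200 (0.90 ± 0.32, adjusted p = 0.0435). At an unadjusted p under 0.05, 3 of the 311 elements with an estimate were higher and 1 lower, against 1174 and 1263 of 27651 features. The edgeR test called 3 of 52 elements. This comparison and the one with WT Col-0 share the pLAT52::RTL1 libraries and are not independent. Without pLAT52::RTL1 replicate 1 the fold change of AT5TE26970 was 1.79 and did not pass (DESeq2 adjusted p = 0.0686).

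AT5TE51200 is a copy of ATLINE1A of 2661 bases on chromosome 5 (14309658 to 14312318), 4482 bases from the gene AT5G36290. It shares bases with a RefSeq pseudogene (AT5G36296), and the intervals at its borders, of 2 listed bases each, held 6 and 1 reads. Its counts were 96 and 118 for WT Col-0, 248 and 302 for pLAT52::RTL1 and 82 and 130 for pMGH3::RTL1. They were 196 and 391 for WT FTL and 464 and 716 for nrpd1a-3 FTL, whose libraries were above the other 8. Against WT Col-0 the log2 fold change of pLAT52::RTL1 was 0.77 ± 0.32 and did not pass (DESeq2 adjusted p = 0.0961). For nrpd1a-3 FTL it was 1.33 ± 0.57 relative to WT FTL and did not pass either (adjusted p = 0.990). The normalised counts of the WT FTL libraries were 181 and 440.1, and those of the nrpd1a-3 FTL libraries 489.9 and 1191, in order of replicate number. Both kinds of grain came from plants of one genotype, but the labels do not say that a number marks a shared sort. With the replicate number as a block the log2 fold change was 1.36 ± 0.36 and passed (DESeq2 adjusted p = 0.0047), as 1 of 2 elements that then had an adjusted p, where 11.7% of all features tested were called higher. The call against pMGH3::RTL1 was lost without either library of either group (DESeq2 adjusted p = 0.0581 to 0.554), and without independent filtering (0.113). The nearest gene, AT5G36290, rose in the same comparison (log2 fold change 0.66 ± 0.23, DESeq2 adjusted p = 0.0405).

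No LINE element was called in pMGH3::RTL1 against WT Col-0. Of 311 elements with an estimate, 0 were called higher or lower by DESeq2 and 0 by edgeR, where 0.0217% of all features were called (0.0145% higher and 0.00723% lower), and at an unadjusted p under 0.05, 2 were higher and 0 lower. The 2 with the lowest p were AT2TE16650 and AT3TE52705. AT2TE16650 (ATLINE1A, 957 bases), far from genes, had 0 reads in either WT Col-0 library, 11 in each pLAT52::RTL1 library, 7 and 6 in those of pMGH3::RTL1, and 0 or 1 in each sorted library. Its RNA was found in all 4 libraries with a construct and in neither WT Col-0 library. With 3 reads set in each WT Col-0 library it was 2.41-fold higher in pLAT52::RTL1 and 2.00-fold higher in pMGH3::RTL1. The DESeq2 adjusted p was 1 in pMGH3::RTL1, and none was given in pLAT52::RTL1 (unadjusted p = 0.0066, edgeR adjusted p = 0.022). AT3TE52705 had WT Col-0 counts of 56 and 42 and pMGH3::RTL1 counts of 133 and 109 (log2 fold change 1.17 ± 0.47, DESeq2 adjusted p = 1). Among elements with a lower value, the lowest p were those of AT1TE10830 (ATLINE2, −0.72 ± 0.56) and AT4TE30235 (−3.90 ± 2.63).

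In nrpd1a-3 FTL against WT FTL no LINE element was called either, except AT5TE51200 with the replicate number as a block, as given above. Of 231 elements with an estimate, 0 were called by DESeq2 and 0 by edgeR, where 0.00800% of all features were called, each of them higher (0.00% lower). At an unadjusted p under 0.05, 2 were higher and 2 lower, and the median log2 fold change was −0.23 for the elements and 0.16 for all features. The 2 with the lowest p among the higher ones were AT5TE51200, given above, and AT1TE42025 (ATLINE1_5, 244 bases), whose WT FTL counts were 32 and 38 and whose nrpd1a-3 FTL counts were 46 and 133 (log2 fold change 1.75 ± 0.82, DESeq2 adjusted p = 0.990). The lower ones were AT3TE43550 (−1.30 ± 0.63) and AT3TE91225 (−1.45 ± 0.61, both DESeq2 adjusted p = 0.990). The libraries of WT FTL differed widely at these 2 elements, 951 and 238 reads for AT3TE43550 and 442 and 158 for AT3TE91225. AT5TE26970 and AT3TE70260, which rose in pLAT52::RTL1, had log2 fold changes of 0.81 ± 0.75 and 0.31 ± 0.70 in nrpd1a-3 FTL (both DESeq2 adjusted p = 0.990).

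The effects of pLAT52::RTL1 and of nrpd1a-3 were compared directly in a fit of all 10 libraries. Of 47 elements tested, 0 differed by DESeq2 and 0 by edgeR, where 2.73% of all features were called (0.574% higher and 2.16% lower), and at an unadjusted p under 0.05, 6 were higher and 4 lower. For AT5TE26970 the difference of the effects was 1.31 ± 0.82 on the log2 scale (DESeq2 adjusted p = 0.580) and for AT3TE70260 1.60 ± 0.88 (adjusted p = 0.486). For AT5TE51200 it was −0.66 ± 0.72 (adjusted p = 0.819). The effects on these elements were thus not shown to differ. The positive differences with the lowest p were at AT3TE91225 (1.58 ± 0.57, adjusted p = 0.128) and AT3TE43550 (1.68 ± 0.67, 0.199), and AT3TE41210 had a low p among the negative ones (−1.94 ± 0.80, 0.230). At AT3TE41210 the neighbouring gene AT3G26860 moved the same way (−1.46 ± 0.64, adjusted p = 0.278). AT2TE09180 (ATLINE1_1, 682 bases), with the lowest p among the negative differences, had 0 reads in both pLAT52::RTL1 libraries, 2 and 16 in those of nrpd1a-3 FTL, and no adjusted p.

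Larger differences were found between the wild types of the experiments. WT FTL had 9 elements higher and 13 lower than WT Col-0 of 80 tested, where 30.3% of all features were called, 14.9% higher and 15.4% lower, against 27.5% of the LINE elements. By edgeR, 8 were higher and 12 lower. TEs outside genes as a whole had 255 higher and 79 lower of 1327 tested. Sorting, the DsRed transgene and the experiment cannot be told apart in this comparison, and neither can fewer cells of a type and less RNA per cell. Summed normalised counts of the 10 vegetative cell markers were 1931200 to 3125300 in the RTL1 experiment and 393920 to 686250 in the FTL experiment, and those of the 10 leaf markers were 804 to 1385 and 79.8 to 1067. The sperm cell markers were 20946 to 32094 and 29563 to 54920. Their part in the differences of LINE elements was not tested.

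Elements that were lower in WT FTL lay both beside genes and far from them. AT3TE52705 (ATLINE1_6, 1074 bases, chromosome 3, 12820672 to 12821745) is 23801 bases from the nearest gene, in sequence of which TEs cover 74.7% within 50 kb, and its flanking intervals held 0 and 14 reads. Counts were 56 and 42 for WT Col-0, 48 and 120 for pLAT52::RTL1, 133 and 109 for pMGH3::RTL1, 2 in each WT FTL library, and 2 and 0 for nrpd1a-3 FTL. Its RNA was thus present in all 6 libraries of total pollen and at or under 3 reads in all 4 sorted libraries. With 3 reads set in each WT FTL library it was 16.7-fold lower in WT FTL than in WT Col-0, which is no lower limit. The log2 fold change was −4.65 ± 0.96 (DESeq2 adjusted p = 1.9e-05). AT3TE52695 (ATLINE1_5, 2048 bases), a nearby copy chosen after its values were seen, held 22 to 62 reads in every library and did not pass (0.69 ± 0.65, adjusted p = 0.473).

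AT5TE55640 and AT5TE55645 (691 and 21 bases) had identical counts, 11 and 19 for WT Col-0, 16 and 29 for pLAT52::RTL1, 10 and 24 for pMGH3::RTL1, and 1 and 0 for WT FTL as for nrpd1a-3 FTL. The intervals of 2 and 184 listed bases beside AT5TE55645 held the same 111 reads over the 10 libraries as each element. Whether the same reads span all of them was not tested. The elements lie between RBCS2B and RBCS1B, which encode small subunits of Rubisco, and RefSeq's model of RBCS1B shares bases with them. The log2 fold change of each was −4.91 ± 1.77 (DESeq2 adjusted p = 0.0218). RBCS1B, the nearest gene, had −1.47 ± 0.75 and did not pass (adjusted p = 0.131), whereas RBCS2B, chosen after its values were seen, had −3.21 ± 0.93 (adjusted p = 0.00332). RBCS2B is also on the leaf list, of which 3 of 10 genes were called lower and 0 higher in this comparison, and the part of leaf RNA in these counts was not tested. The call on both elements was lost without WT FTL replicate 2 (log2 fold change −4.04). Without WT Col-0 replicate 1 (−5.16) or WT Col-0 replicate 2 (−4.63) neither element had an adjusted p.

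The other elements with the lowest values had few reads. AT1TE37850 (ATLINEIII, 351 bases) held 6 to 15 reads in each library of total pollen, 0 in both WT FTL libraries and 0 and 14 in those of nrpd1a-3 FTL. It was 2.69-fold lower in WT FTL with 3 reads set in each WT FTL library. No adjusted p was given without WT Col-0 replicate 1 (log2 fold change −5.34), WT Col-0 replicate 2 (−5.60) or WT FTL replicate 2 (−5.60). AT2TE01550 (ATLINE1_5, 1674 bases) held 5 to 11 reads in each library of total pollen and 0 in each of the 4 sorted libraries, and was 2.60-fold lower by the same setting. It had no adjusted p when any library compared was left out (log2 fold change −5.92 to −4.66), nor with the replicate block. AT3TE43550 was lower as well (−2.55 ± 0.47, DESeq2 adjusted p = 1.4e-06), as were AT1TE33205 (−1.56 ± 0.38) and AT1TE33210 (−1.50 ± 0.39), beside AT1G29355 (−1.56 ± 0.38).

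The elements with the highest values in WT FTL included 1 whose reads were those of a TE nested inside it. AT4TE10775 (ATLINE1_5, 452 bases) held 0 to 2 reads in each library of total pollen, 20 and 65 for WT FTL, and 45 and 82 for nrpd1a-3 FTL (DESeq2 adjusted p = 0.00059). With 3 reads set in each WT Col-0 library it was 14.8-fold higher in WT FTL. AT2TE13950 (ATLINE1_2, 11015 bases) held 2 to 8 reads in each library of total pollen, 42 and 64 for WT FTL, and 62 and 90 for nrpd1a-3 FTL (log2 fold change 4.18 ± 0.92, adjusted p = 5.7e-05). The reads of AT2TE13950 were almost all those of AT2TE13955, an LTR/Gypsy element of the ATGP2 family nested inside it, which had WT FTL counts of 42 and 64 and nrpd1a-3 FTL counts of 58 and 90. AT3TE70260 (3.13 ± 0.65), AT3TE91925 (TA11, 3.12 ± 0.92) and AT4TE04470 (ATLINE1A, 2.91 ± 0.90) followed. AT3TE91925 held 21 and 112 reads in WT FTL, and its call was lost without WT FTL replicate 2 (1.22) and without WT Col-0 replicate 2 (2.82). AT4TE04470 lost its call without WT FTL replicate 2 (2.51) and without WT Col-0 replicate 1 (2.59).

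Genes that silence TEs were read beside the elements, from a list of 32 for DNA methylation, histone methylation, siRNA production and chromatin, chosen with earlier results of these data known. In pLAT52::RTL1, 1 of 14 tested rose and 1 fell, where 6.53% of all features were called higher and 7.77% lower, so that the list was called no more often than features in general. ATXR5, which methylates histone H3 in heterochromatin, rose by 1.36 ± 0.21 on the log2 scale (DESeq2 adjusted p = 4.9e-09), and MET1, the maintenance DNA methyltransferase, fell by 0.60 ± 0.22 (adjusted p = 0.0431). None of 31 tested was called in pMGH3::RTL1, and none of 31 in nrpd1a-3 FTL. In WT FTL against WT Col-0, 7 of 23 tested fell and 0 rose, where 15.4% of all features were called lower and 14.9% higher. On the log2 scale, the argonaute AGO9 had a value of −3.05 ± 0.47 (SE) and MET1 of −3.01 ± 0.44. The histone methyltransferases SUVH4, SUVH5 and SUVH6 had values of −2.53 ± 0.90, −2.06 ± 0.44 and −1.09 ± 0.28, the silencing factor MOM1 of −2.17 ± 0.46 and the chromatin remodeller DDM1 of −1.41 ± 0.36. The median of the 23 genes was −1.09, against 0.00 for all features tested.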

How the data were processed

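Pollen RNA-seq was analysed in 10 libraries of 5 groups. Per the study's methods and the labels, the authors sequenced paired-end reads of 100 bases and aligned them with STAR to TAIR10. The deposited tables hold raw read counts per gene, TE and intergenic interval; the counting program, its strand setting and its treatment of reads with several positions are not given in the sources used here. Counts of genes and TEs were fitted with DESeq2 1.42.0 (R 4.3.3), the study's method, with an adjusted p of 0.05, separately for the RTL1 experiment (6 libraries) and the FTL experiment (4 libraries), and over all 10 libraries to compare across experiments. Intergenic intervals were read beside the elements and not tested. The edgeR 4.0.16 quasi-likelihood test, other scalings and filters, a replicate block, other member sets and leaving out each library were alternatives. All statistics scripts were tested on simulated counts.

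Elements were named by rule: the 10 with the highest mean count, those called in a comparison (with more than 10 called, the 5 highest and the 5 lowest), the 2 with the lowest p in each direction where none was called, and the longest element of the 3 families with the most reads; others are said to be chosen afterwards. The members and lists were chosen with earlier results of these data known. Sequences were read from RefSeq's TAIR10.1, whose chromosomes 1 to 5 have the lengths of the deposited tables, and similarity was measured with BLAST 2.17.0.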

Additional observations from a re-analysis of the deposited data

How the results depend on the processing

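Counts of called LINE elements rested on single libraries and on the scaling. The counts below stand without the share of all features called under each alternative, and show only how the calls moved. Scaling by total reads shifted the median of all features by 0.48 (log2) in pLAT52::RTL1 against WT Col-0, 0.49 against pMGH3::RTL1, −0.28 in nrpd1a-3 FTL against WT FTL, 0.83 in the difference of the effects and −0.11 in WT FTL against WT Col-0, and TMM factors shifted that difference by 0.18. With total reads, 9 elements were called in pLAT52::RTL1 against WT Col-0, 7 against pMGH3::RTL1 and 5 in the difference of the effects, all higher. Features in general shifted upward in these comparisons, so that the counts cannot be read as particular to LINE elements. The summed log2 ratios with total reads were 0.773, 0.737, −0.288 (nrpd1a-3 FTL), 1.06 and −1.09 (WT FTL against WT Col-0). Family ratios near 0 changed sign with total reads, among them those of ATLINE1_5, ATLINE1_4 and ATLINEIII in pLAT52::RTL1, while those of ATLINE1A kept theirs in each comparison except the difference of the effects.

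Leaving out each library in turn gave 0 to 4 calls in pLAT52::RTL1 against WT Col-0 (0 without pLAT52::RTL1 replicate 1, 4 without replicate 2, 1 without either WT Col-0 library), 0 to 4 against pMGH3::RTL1 (0 and 4 without the same libraries, 1 without either pMGH3::RTL1 library), 0 to 4 in the difference of the effects (4 without WT FTL replicate 2, 3 without nrpd1a-3 FTL replicate 1, 1 without pLAT52::RTL1 replicate 2), and 9 to 25 in WT FTL against WT Col-0 (9 without WT FTL replicate 2, 10 and 14 without WT Col-0 replicates 1 and 2). The summed log2 ratio ranged from 0.0276 to 0.52 in pLAT52::RTL1 against WT Col-0, from −0.009457 to 0.48 against pMGH3::RTL1 (lowest without pLAT52::RTL1 replicate 1 in both), from −0.28 to 0.28 in nrpd1a-3 FTL, from −0.22 to 0.58 in the difference of the effects and from −1.07 to −0.90 in WT FTL against WT Col-0. The fits with 1 library in a group assume that it varies like the others.

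The replicate numbers shared by groups pair nothing in the labels. Deviations of same-numbered libraries correlated at 0.509 between WT FTL and nrpd1a-3 FTL, 0.212 between pLAT52::RTL1 and pMGH3::RTL1, 0.141 between WT Col-0 and pMGH3::RTL1 and −0.00735 between WT Col-0 and pLAT52::RTL1, over 7445 features. With the replicate block, 1 element (AT5TE51200, adjusted p = 0.0047) was called in nrpd1a-3 FTL against WT FTL, of 2 with an adjusted p, and 1 in pLAT52::RTL1 against pMGH3::RTL1. No other count of calls moved by more than 1.5 times with the block.

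Against pMGH3::RTL1, 1 element was called without independent filtering, 1 in the fit of all 10 libraries and 1 in a fit of only the 4 libraries compared. With elements at least 500 bases from any gene, 1 was called in pLAT52::RTL1 against WT Col-0, and the summed log2 ratio in WT FTL against WT Col-0 was −1.07. With the LINE elements that overlap genes included, 4 were called in pLAT52::RTL1 against WT Col-0, 4 against pMGH3::RTL1 and 1 in the difference of the effects, and the summed log2 ratios were −0.0035, −0.051 and, in WT FTL against WT Col-0, −0.81. In the last comparison the sum was −0.37 without AT3TE43550, −0.88 without elements whose reads equal both flanks or a nested TE and −0.42 without those that share bases with a RefSeq gene, 3 choices made after seeing the data. Over the named elements no fold change reversed, 22 were no longer past the threshold and 8 newly passed it under some alternative; the cause was not tested.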
